A study of Arabidopsis thaliana with 2 samples.

Results

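The heterochromatic knob of chromosome 4 is a block of condensed chromatin inside the short arm, taken here as 1.6 to 2.3 Mb (TAIR10). Its members are the regions with a midpoint in that interval in the authors' deposited tables of differential methylation, chosen by position alone. There were 696 of them among 83934 regions of the whole series, 298 in the tables of ddb2-3 against Col and 398 in the tables of a line called cen against Col. The same length of the arm on each side was set beside it, 0.9 to 1.6 Mb (the left flank) and 2.3 to 3.0 Mb (the right flank, which leads towards the centromere), with 591 and 714 regions.

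The knob is known from cytology as a heterochromatic island that some accessions of Arabidopsis thaliana carry, Col among them, and others lack. It derives from pericentromeric sequence moved into the arm by an inversion, and it is rich in transposons and poor in expressed genes. Plant DNA methylation has 3 sequence contexts, CG, CHG and CHH, where H is any base but G. CG methylation is copied at replication by MET1 and is found both in transposons and in the bodies of expressed genes. CHG methylation is kept by CMT3 together with methylation of histone H3, and CHH methylation by CMT2 and by the RNA-directed pathway. Non-CG methylation of both kinds is typical of heterochromatin.

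The study bisulfite sequenced whole seedlings grown in vitro for 10 days, with 1 library of Col wild type and 1 of ddb2-3, an insertion line (DsLoxHs195_05H) in DDB2, which recognises ultraviolet damage in global genome repair. The genotype of cen is not given in the labels used here, and all comparisons share Col as their reference. No value has a replicate, no test between plants was possible, and the depth behind a region is unknown. Intervals on shares are 95% Wilson intervals and cover counting error only, and neighbouring regions are not independent. The tables give only the difference in methylation level (from 0 to 1), with an unstated direction that was inferred to be Col minus the line. The inference rests on 818 values shared by both tables in CG and on 5 in CHH, while CHG was read like CG from the signs of overlapping regions. If it is wrong for a context, higher and lower are exchanged in that context. At DDB2 itself, the authors' deposited CG table for ddb2-3 lists chromosome 5, 23731001 to 23732000, as lower by 0.355, and as it holds no level per library it checks no label.

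The knob differed from its flanks in gene content. It held 54 protein-coding genes and 120 genes annotated as pseudogenes, a class into which transposon genes may fall and whose make-up was not checked. Protein-coding genes took up 14.7% of the knob, 64.6% of the left flank and 36.5% of the right flank, against 54.1% of the nuclear genome. Pseudogenes took up 37.8% of the knob, 4.20% of the left flank and 15.7% of the right flank, against 8.68% of the genome. The right flank thus lay between the knob and the left flank in both measures.

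CHG regions were dense in the knob. For ddb2-3 there were 99, or 14.1 per 100 kb, against 3.14 per 100 kb in the left flank and 8.43 in the right flank. For cen there were 153, or 21.9 per 100 kb, against 3.43 and 13.6. The knob's CHG density was 4.50 times that of the left flank for ddb2-3 and 6.38 times for cen, and 1.68 and 1.61 times that of the right flank. Of the 100 bp windows of the knob, 1.67% lay in a CHG region of ddb2-3 and 2.74% in one of cen, where the nuclear genome had 0.438% and 0.728%. Pericentromeres elsewhere, meaning all sequence within 3 Mb of the 5 centromeres but outside the knob and its flanks, had 11.0 CHG regions per 100 kb for ddb2-3 and 18.0 for cen. The rest of the chromosome arms had 1.33 and 1.71.

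CG regions showed no such excess. The knob had 168 CG regions for ddb2-3 (24.0 per 100 kb) and 195 for cen (27.9 per 100 kb), fewer than the left flank (224 and 255) and the right flank (203 and 227). CG regions covered 2.99% of the knob's windows for ddb2-3 and 3.57% for cen, near the 3.29% and 3.64% of the genome. CHH regions were the least frequent, with 31 for ddb2-3 (4.43 per 100 kb) and 50 for cen (7.14 per 100 kb). Their windows were 0.514% and 0.786% of the knob, against 0.451% and 0.504% of the genome. CHH regions per 100 kb in the left flank were 4.57 for ddb2-3 and 4.86 for cen, and those in the right flank were 9.43 and 9.14. Pericentromeres elsewhere had 7.13 and 9.39. The knob thus stood above other pericentromeres in CHG density and below them in CHH density in both comparisons. Those pericentromeres were taken as windows of 1 set width, and their gene content was not matched to that of the knob. Whether the knob differs from them was not tested.

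By context, 56.4% of the knob's ddb2-3 regions were CG (95% interval 50.7 to 61.9) and 33.2% were CHG (28.1 to 38.8). In the left flank 80.6% were CG and 7.91% CHG, and in pericentromeres elsewhere 55.6% and 26.9%. For cen the knob had 49.0% CG (44.1 to 53.9) and 38.4% CHG (33.8 to 43.3), and pericentromeres elsewhere 47.4% and 34.6%. CHH regions made up 10.4% (7.43 to 14.4) of the knob's regions for ddb2-3 and 12.6% (9.66 to 16.2) for cen, while in pericentromeres elsewhere they were 17.5% and 18.0%.

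**Figure D1:**
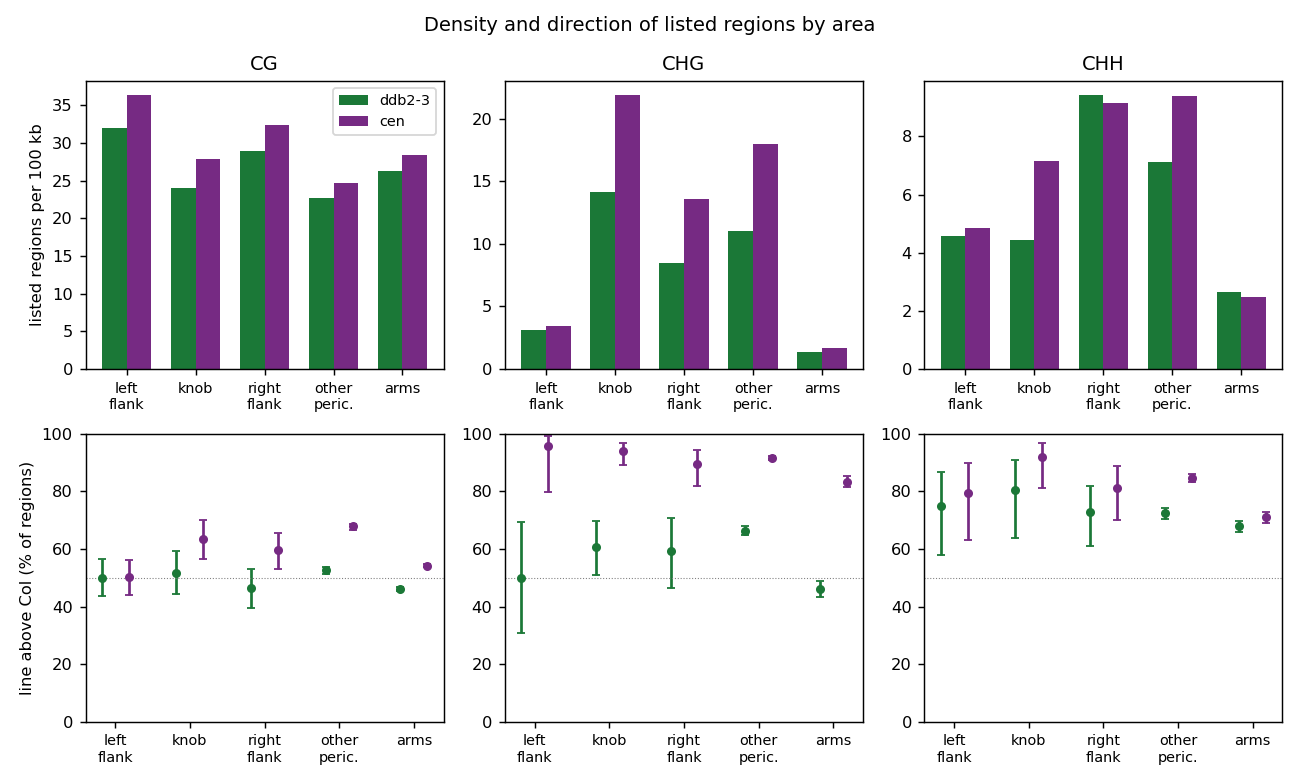
Listed regions per 100 kb (top) and the share of regions in which the line was above Col (bottom, in percent, with 95% Wilson intervals that cover counting error only) in the knob, its flanks, pericentromeres elsewhere (other peric.) and the rest of the arms, by context, for ddb2-3 (green) and cen (purple). CHG density in the knob, at 14.1 and 21.9 per 100 kb, exceeds that of each other area shown, while CG density, at 24.0 and 27.9, lies below both flanks.

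Gains outnumbered losses in the knob in CHG and CHH. In ddb2-3, 60 CHG regions were higher than Col and 39 were lower, so that 60.6% were higher (50.8 to 69.7), where 60.7% of all CHG regions of the nuclear genome were. For cen, 144 were higher and 9 lower, or 94.1% (89.2 to 96.9), against 89.8% in the genome. In CHH, 25 of 31 regions were higher in ddb2-3, or 80.6% (63.7 to 90.8), against 70.1% in the genome, and 46 of 50 in cen, or 92.0% (81.2 to 96.8), against 78.5%. All of these shares but that of CHH in cen have a genome value inside their interval. For CHH in cen, the share of pericentromeres elsewhere, 84.5%, lay inside it.

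In CG, 87 regions were higher and 81 lower in ddb2-3, or 51.8% higher (44.3 to 59.2), against 47.6% in the genome. For cen, 124 were higher and 71 lower, or 63.6% (56.6 to 70.0), against 57.1%, so that the genome's CG share lay inside both intervals. The left flank of the same arm was balanced in both lines, at 50.0% higher (43.5 to 56.5) for ddb2-3 and 50.2% (44.1 to 56.3) for cen. The interval of the knob for cen therefore lay above that of its left flank, and it overlapped that of the right flank (59.5%, 53.0 to 65.6) and lay around the CG share of pericentromeres elsewhere (67.8%). The difference between areas was not tested.

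CHG losses were more frequent in the ddb2-3 list than in the cen list. The knob held 39 lower CHG regions in the ddb2-3 table and 9 in the cen table, or 5.57 and 1.29 per 100 kb, where the genome had 1.47 and 0.586. Of the 39, 3 overlapped a lower CHG region of cen and 36 met no CHG region of cen, which is 92.3% against 87.2% of all lower CHG regions of ddb2-3 in the genome. Within 500 bp of 7 of the 39 lay a CHG region that was higher in cen. Such regions stood at 20.6 per 100 kb in the knob, and this count was made for the knob alone. Whether it exceeds what their density gives was not tested. With 1 library a line, whether the lines differ in CHG losses was not tested.

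Along the knob, CHG regions appeared at its left border and were spread over its length. The last 100 kb before 1.6 Mb held 2 CHG regions for ddb2-3 and 7 for cen, and the first 100 kb inside held 14 and 26. At the other border, 19 and 28 CHG regions stood in the last 100 kb inside 2.3 Mb and 8 and 17 in the first 100 kb outside it. The 7 stretches of 100 kb within the knob had 9 to 19 CHG regions for ddb2-3 and 14 to 28 for cen, while those of the left flank had 2 to 5 and 1 to 8. Higher CHG regions outnumbered lower ones in 6 of the 7 for ddb2-3, with 7 of each in the stretch from 1.6 to 1.7 Mb, and in 7 of 7 for cen. In CG, higher regions were the more frequent in 2 of the 7 for ddb2-3 and in 7 of 7 for cen.

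**Figure D2:**
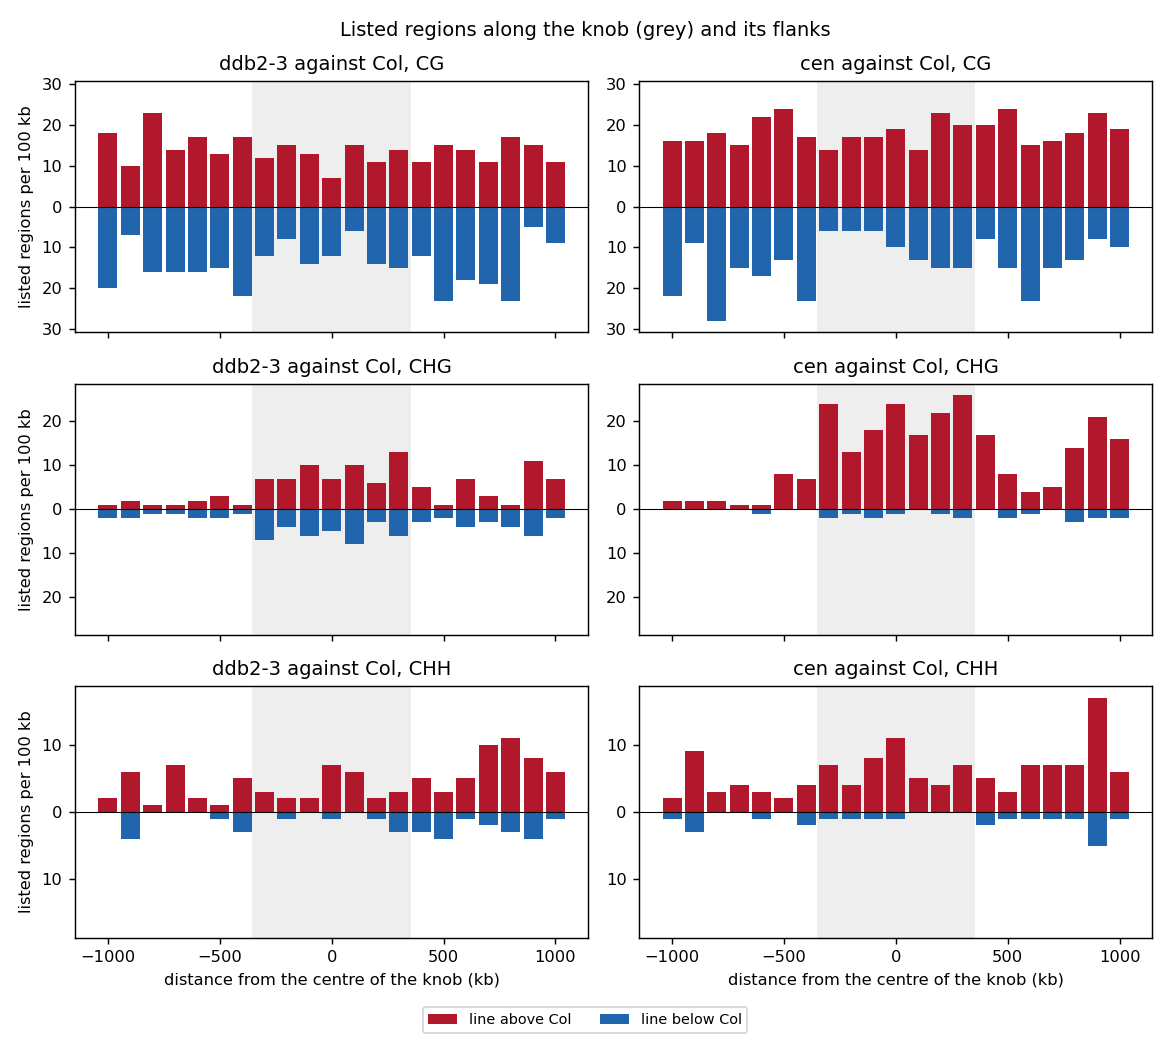
Listed regions in stretches of 100 kb, by distance from the centre of the knob in kb, for ddb2-3 (left) and cen (right) in each context. Bars above 0 count regions in which the line was above Col and bars below 0 those in which it was below, and the knob is shaded grey. CHG regions step up at the left border of the knob, from 2 to 14 for ddb2-3 and from 7 to 26 for cen.

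At a finer scale each of the 70 stretches of 10 kb held at least 3 regions, all tables counted together, with a median of 10 and a maximum of 19. The widest gap without a region of any table was 8.3 kb, at 2052201 to 2060500. Of the 19 regions at 2130001 to 2140000, 16 were CG regions (4 higher and 4 lower in ddb2-3, 5 higher and 3 lower in cen). At 2280001 to 2290000 the count was also 19, but 13 of these were CHG regions (4 higher and 3 lower in ddb2-3, 6 higher in cen).

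CG differences in the knob were small. The median absolute difference was 0.163 for ddb2-3 (quartiles 0.127 and 0.223) and 0.166 for cen (0.132 and 0.239). In the left flank the medians were 0.260 and 0.263, in the right flank 0.231 and 0.207, in pericentromeres elsewhere 0.192 and 0.185, and over the genome 0.232 for both. A CG difference of 0.3 or more was listed at 10.1% of the knob's regions in ddb2-3 and 15.4% in cen, against 38.4% and 37.6% in the left flank and 31.3% and 32.3% in the genome. CHG differences were of the same size inside and outside, with medians of 0.177 and 0.170 in the knob and 0.180 and 0.175 in the genome. CHH medians were 0.124 and 0.116 in the knob and 0.125 and 0.121 in the genome, close to the smallest differences listed.

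**Figure D3:**
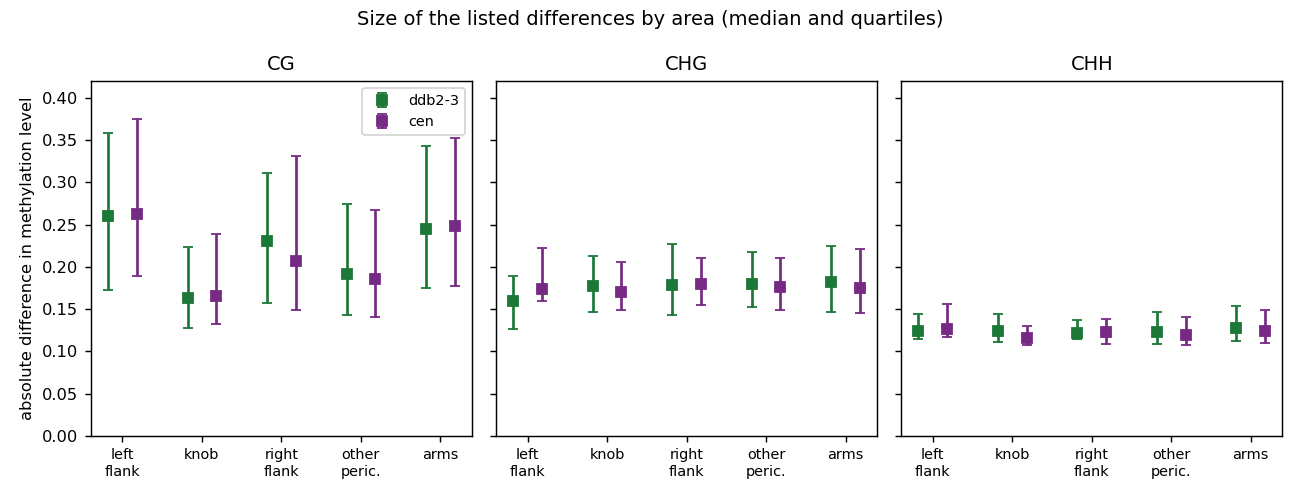
Absolute difference in methylation level (0 to 1) of the listed regions by area and context, as the median (square) and quartiles (bars), for ddb2-3 (green) and cen (purple). In CG the knob medians, 0.163 and 0.166, are the lowest of the areas shown, and in CHG and CHH the areas lie close together.

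Within the knob, the CG regions of genes and of pseudogenes differed in frequency and size. Protein-coding genes held 50 of the 168 CG regions of ddb2-3, or 29.8% (23.4 to 37.1), with a median difference of 0.203, and pseudogenes held 61, or 36.3% (29.4 to 43.8), with a median of 0.138. For cen the counts were 61 and 66 of 195 and the medians 0.217 and 0.154. The same contrast was seen over the genome, with medians of 0.247 and 0.161 for ddb2-3 and 0.249 and 0.160 for cen. It was thus not particular to the knob. Set against the length of each class, the knob's protein-coding genes had 48.7 CG regions per 100 kb of gene in ddb2-3 and 59.4 in cen, and its pseudogenes had 23.0 and 24.9. The genome's pseudogenes had 21.5 and 23.5. Per 100 kb of protein-coding gene, the left flank had 44.5 and 49.8, the right flank 48.1 and 47.7, and the genome 36.9 and 39.9. In ddb2-3 the knob's few protein-coding genes therefore carried CG regions about as densely as those of its flanks. In cen they carried them more densely, at 59.4 against 49.8 and 47.7, and this difference was not tested. In ddb2-3, 20 of the 50 CG regions in protein-coding genes were higher, or 40.0% (27.6 to 53.8), and 34 of 61 were in cen, or 55.7% (43.3 to 67.5). In pseudogenes 52.5% (40.2 to 64.5) were higher in ddb2-3 and 71.2% (59.4 to 80.7) in cen. The genome's shares for the same classes, 46.5% and 53.5% in protein-coding genes and 58.4% and 76.6% in pseudogenes, lay inside these intervals.

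CHG regions lay mainly in pseudogenes. For ddb2-3, 61 of the 99 did (61.6%, 51.8 to 70.6), and for cen 89 of 153 (58.2%, 50.2 to 65.7), where the genome had 44.6% and 46.4%. Pericentromeres elsewhere had 52.1% for ddb2-3 and 51.8% for cen, values inside these intervals. Per 100 kb of pseudogene, the knob had 23.0 CHG regions in ddb2-3 and 33.6 in cen, and the genome had 19.1 and 30.6. The left flank, with 10 CHG regions of each line in its pseudogenes, reached 34.0 per 100 kb of pseudogene in both, and the right flank 25.5 and 30.1. Counted per length of pseudogene, CHG density in the knob was thus below that of the left flank in ddb2-3 and close to it in cen. Of the CHG regions in the knob's pseudogenes, 41 were higher and 20 lower in ddb2-3 (67.2% higher, 54.7 to 77.7), and 85 were higher and 4 lower in cen (95.5%, 89.0 to 98.2), near the 69.6% and 92.0% of the genome's pseudogenes. Outside any gene and more than 1 kb from protein-coding genes, 13 of the ddb2-3 CHG regions were higher and 14 lower (48.1% higher, 30.7 to 66.0), with 59.0% higher in the genome.

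Protein-coding genes of the knob held 6 CHG regions of each line by midpoint, 5.84 per 100 kb of gene, where the genome had 0.703 for ddb2-3 and 1.03 for cen. CHH regions lay most often in the same outside class, which can still be near pseudogenes, 17 of 31 for ddb2-3 and 21 of 50 for cen, with 9 and 20 in pseudogenes. Per 100 kb of such outside sequence the knob had 6.52 CHH regions in ddb2-3 and 8.05 in cen, fewer than the left flank (14.5 and 19.7), the right flank (15.3 for both) and the genome (10.3 and 12.0).

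**Figure D4:**
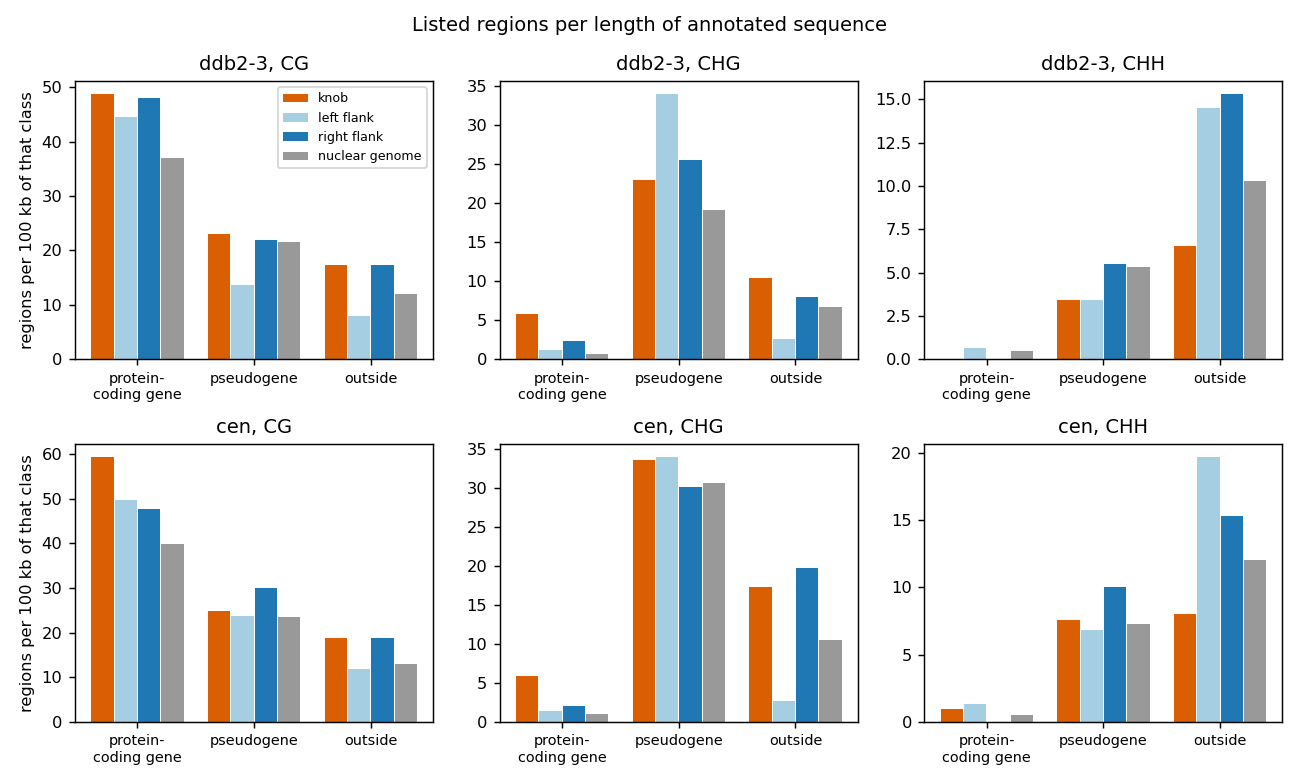
Listed regions per 100 kb of protein-coding gene, of pseudogene and of sequence outside any gene and more than 1 kb from protein-coding genes, in the knob (orange), its left flank (light blue), its right flank (dark blue) and the nuclear genome (grey), for ddb2-3 (top) and cen (bottom). CG regions are densest in protein-coding genes, at 48.7 and 59.4 in the knob, and CHG regions in pseudogenes, at 23.0 and 33.6.

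Taking genes one by one, 99 of the knob's 120 pseudogenes (82.5%) and 36 of its 54 protein-coding genes (66.7%) overlapped a region of some table. Over the genome 70.1% of pseudogenes and 53.6% of protein-coding genes did, and in the right flank 75.0% and 61.1%. A CHG region of ddb2-3 overlapped 42 pseudogenes, of which 26 had higher regions alone, 10 lower regions alone and 6 both. For cen it was 57 pseudogenes, with 53 higher alone, 1 lower alone and 3 both. These were 35.0% (27.1 to 43.9) and 47.5% (38.8 to 56.4) of the knob's pseudogenes, against 29.6% and 41.4% of those of the genome, which lie inside the intervals. Where a pseudogene had at least 2 CHG regions, these went one way in 9 of 15 for ddb2-3 and 20 of 23 for cen. As 67.2% (ddb2-3) and 95.5% (cen) of the CHG regions in the knob's pseudogenes were higher, many would go one way from these shares alone. No genome value was made for these counts, and a tendency within genes was not tested.

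The 5 genes with the most regions were mostly pseudogenes, as were 120 of all 197 genes of the knob. The counts were not scaled to gene length. AT4G03790, a pseudogene of 5.77 kb, had 13. In the authors' deposited tables, its CHG regions at 1692201 to 1692300 and 1692901 to 1693100 were higher in ddb2-3 by 0.129 and 0.185, and the overlapping cen regions were higher by 0.173 and 0.194. Its CHG region at 1693801 to 1693900 was lower in ddb2-3 by 0.182 in the authors' deposited table. AT4G04280, a pseudogene of 3.87 kb, had 12 regions. The authors' deposited tables list 5 CHG regions of cen in it, all higher, by 0.130 to 0.180, and 5 of ddb2-3, of which 4 were higher, by 0.117 to 0.215, and 1 was lower, by 0.123. AT4G03770 also had 12 regions, with a CHH region at 1676101 to 1676200 higher by 0.106 in ddb2-3 and by 0.103 in cen in the authors' deposited tables. AT4G03650, with 9, had 2 CHG regions of ddb2-3, lower by 0.159 and 0.209, where the cen regions, at other positions in it, were higher by 0.165 and lower by 0.178, all from the authors' deposited tables.

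The remaining gene among the 5 with most regions was EMB2369 (AT4G04350), an embryo-defective gene known to encode an aminoacyl-tRNA synthetase. Its 12 regions were CG regions, 5 of ddb2-3 and 7 of cen, in both directions. The authors' deposited table gives 2131601 to 2131700 as lower in ddb2-3 by 0.482, the widest CG loss of that line in the knob, and cen was lower there by 0.342. At 2132301 to 2132400 the authors' deposited table has ddb2-3 higher by 0.504, its widest CG gain in the knob, while the cen region 2132101 to 2132400 was lower by 0.320. That cen region overlaps another of the same table, 2132001 to 2132300, which was higher by 0.368 in the authors' deposited table. Overlaps of opposite sign within a table occurred for 2 CG regions of each line in the knob and for no CHG or CHH region there. In both cases at least 1 of the overlapping regions was 300 bp long.

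Next to EMB2369 lies AT4G04340, known as OSCA1, which encodes a calcium-permeable channel of the osmotic response. The region 2126201 to 2126700 in it had the same borders in both CG tables and was the longest CG region of ddb2-3 in the knob. The authors' deposited tables give it as lower by 0.216 in ddb2-3 and by 0.172 in cen. The widest CG gain of cen in the knob lay in the same gene, at 2123801 to 2123900, higher by 0.457 in the authors' deposited table, with no ddb2-3 region there. The widest CG loss of cen, 0.593 in the authors' deposited table, lay at 2226601 to 2226700 in AT4G04460.

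Protein-coding genes of the knob with a symbol numbered 16, and 13 of these had a CG region in the gene for ddb2-3 and 12 for cen. Of all 54 protein-coding genes of the knob 48.1% and 53.7% had one, and of those of the genome 43.5% and 45.8%. The regions in the 16 went both ways, with 12 higher and 18 lower in ddb2-3 and 13 higher and 15 lower in cen. In the genome 46.5% and 53.5% of the CG regions with a midpoint in protein-coding genes were higher. A CHG region lay in 1 of the 16 for each line, CRK40. The CRK genes encode cysteine-rich receptor-like kinases, and 5 of them, CRK36 to CRK40, stand in the last 100 kb of the knob. In ddb2-3 they held 5 higher and 6 lower CG regions, CRK37 having none, and in cen 4 higher and 5 lower. At CRK40 (AT4G04570) the authors' deposited tables list 3 CG regions in the gene for ddb2-3, lower by 0.151, 0.227 and 0.169, and 2 for cen, lower by 0.217 and 0.389. Its CHG regions lay at different places, lower by 0.186 in ddb2-3 and higher by 0.215 in cen in the authors' deposited tables. At CRK39 the CG region of ddb2-3 was higher by 0.294 in the authors' deposited table, and the 3 of cen were higher by 0.284 and 0.211 and lower by 0.237.

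MEE51 (AT4G04040), named for a maternal effect on the embryo, was lower in CG at 1941401 to 1941600 by 0.312 in ddb2-3 and 0.323 in cen in the authors' deposited tables. A neighbouring stretch of MEE51, 1941001 to 1941300, was higher in cen by 0.350 in the authors' deposited table. In all, MEE51 held 2 CG regions of ddb2-3, both lower, and 3 lower and 1 higher of cen. Between it and OFP9, of the OVATE family of regulators, a stretch of 300 bp at 1938701 to 1939000 was lower in ddb2-3 in CG by 0.434 and in CHG by 0.257 in the authors' deposited tables, and cen had neither. The CHH table of cen had a gain of 0.130 inside that stretch, at 1938801 to 1938900, in the authors' deposited table. FIB (AT4G04020), a fibrillin of plastid lipid bodies, had a CG region lower by 0.225 in ddb2-3 in the authors' deposited table and none of cen in the gene. PFA-DSP4, a phosphatase gene, was higher at 1888801 to 1888900 by 0.324 in ddb2-3 and 0.357 in cen in the authors' deposited tables, with 2 further regions of ddb2-3 lower by 0.120 and 0.177. WRKY42, a transcription factor gene, was lower at 2220601 to 2220900 by 0.276 in ddb2-3 and 0.420 in cen, as the authors' deposited tables have it. At 2218801 to 2218900 in WRKY42 the signs in the authors' deposited tables differed, lower by 0.146 in ddb2-3 and higher by 0.204 in cen.

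PUX4, for a protein that binds the chaperone CDC48, had a CG region of ddb2-3 lower by 0.213 and cen regions higher by 0.217 and lower by 0.222 in the authors' deposited tables. RLP46, a receptor-like protein gene, had a single region in the gene, CG, higher by 0.136 in ddb2-3, and RbcX1, for an assembly factor of Rubisco, had CG regions higher by 0.119 in ddb2-3 and lower by 0.277 in cen, in the authors' deposited tables. PMP22, of the peroxisomal membrane, was higher by 0.245 in ddb2-3 and 0.186 in cen at different windows in the authors' deposited tables. ISU3, an iron-sulfur scaffold gene, and OFP9 had no region in the gene in any table.

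Of the landmark genes outside the knob, TPC1, the vacuolar cation channel just left of the border, had 11 regions in the gene, the most of these landmarks together with CPK23, a calcium-dependent kinase gene to the right, which also had 11. The widest CG difference in TPC1 was a loss of 0.567 in ddb2-3 in the authors' deposited table, and in CPK23 a loss of 0.525 in ddb2-3 in the same authors' deposited table. The neighbours CPK31, CPK22 and CPK21 had 3, 3 and 1 regions and CPK27 had none in the gene. No CHG region lay in any of these 6 genes, and in the genome only 1.60% (ddb2-3) and 2.22% (cen) of protein-coding genes overlapped one.

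A CHG region overlapped 6 of the knob's 54 protein-coding genes for ddb2-3 (11.1%, 5.19 to 22.2), 2 with higher and 4 with lower regions, and 5 for cen (9.26%, 4.02 to 19.9), all with higher regions. In the genome 1.60% and 2.22% of protein-coding genes were overlapped, and in the right flank 5.31% and 4.42%. AT4G03830 held 2 of each line, in the authors' deposited tables higher by 0.213 and 0.260 in ddb2-3 and by 0.183 and 0.255 in cen. AT4G04110 was higher at 1972501 to 1972600 by 0.189 in ddb2-3 and 0.205 in cen in the authors' deposited tables. The losses of ddb2-3 lay in AT4G03635, AT4G03930, AT4G04415 and CRK40 and ran from 0.110 to 0.304 in the authors' deposited table. A CHH region lay in a protein-coding gene once, in CRK40, where cen was higher by 0.124 in the authors' deposited table.

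The widest CHG differences of ddb2-3 lay in pseudogenes. The authors' deposited table has a gain of 0.389 at 2202901 to 2203000 in AT4G04420, where cen was higher by 0.295, and one of 0.327 at 1952901 to 1953000 in AT4G04070, where cen was higher by 0.159. Its widest losses in the authors' deposited table were 0.394 at 1841201 to 1841300 in AT4G03900, where cen was lower by 0.318, and 0.334 at 1769801 to 1769900 in AT4G03816, with no cen region. The longest CHG region of the knob, 700 bp at 1977901 to 1978600 in the pseudogene AT4G04130, was higher in ddb2-3 by 0.139, and cen was higher by 0.244 at 1978101 to 1978400 within it, in the authors' deposited tables. In cen the widest CHG gains, 0.383 at 1737601 to 1737700 and 0.375 at 1720901 to 1721000 in the authors' deposited table, had no gene within 1 kb and no ddb2-3 region. The first of them was also higher in CG, by 0.175 in the authors' deposited table.

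The widest CHH gain of ddb2-3 was 0.270 at 2074601 to 2074800, where cen was higher by 0.119 at 2074601 to 2074700, in the authors' deposited tables. For cen it was 0.408 at 2211101 to 2211200, within 1 kb of the pseudogenes AT4G04430 and AT4G04440, the only CHH difference in the knob of 0.3 or more, in the authors' deposited table. CHH losses in the knob were at most 0.148 in ddb2-3 and 0.213 in cen in the authors' deposited tables. In CG, cen was lower by 0.565 over 500 bp at 1663901 to 1664400, within 1 kb of AT4G03740, in the authors' deposited table, and also lower there in CHG by 0.169, with no ddb2-3 region in either context.

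Contexts coincided at few places. In ddb2-3, 9 of the 99 CHG regions overlapped a CG region by 1 bp or more, or 9.09% (4.86 to 16.4), and in cen 21 of 153, or 13.7% (9.16 to 20.1). The signs of CG and CHG in these pairs are no result, since the direction of CHG was set by such overlaps. As a share of the CG regions these were 5.36% and 10.8%. In the genome, 666 of 30324 CG regions of ddb2-3 and 935 of 32840 of cen met a CHG region. Both are smaller shares than those of the knob. CHG regions were also denser in the knob than in the genome. Whether the overlap exceeds what their density gives was not tested. Over the genome the shares of CHG regions were 15.0% and 13.8%. None of the 31 CHH regions of ddb2-3 met a CHG region (interval 0% to 11.0%). Of the 50 of cen, 5 did (10.0%, 4.35 to 21.4), all higher in both. The genome's shares, 4.19% and 6.45%, lay inside these intervals, and 2.96% and 2.94% of its CHH regions met a CG region. CHH met CG once in each line, with opposite signs in ddb2-3, in the pseudogene AT4G03790 at 1690701 to 1690800, where CG was lower by 0.129 and CHH higher by 0.110 in the authors' deposited tables. The 3 contexts coincided at 1 place, 1890901 to 1891000 in cen, higher by 0.123 in CG, 0.200 in CHG and 0.108 in CHH in the authors' deposited tables. No such place was found for ddb2-3.

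Regions of both lines coincided less in CG in the knob than in the left flank. Of the knob's CG regions, 30.4% of those of ddb2-3 (23.9 to 37.7) and 25.6% of those of cen (20.0 to 32.2) shared at least 1 bp with one of the other line. In the left flank 53.1% (46.6 to 59.6) and 47.1% (41.0 to 53.2) did, in the right flank 44.3% and 39.6%, and in the genome 52.0% and 48.0%. For CHG the knob had 37.4% of ddb2-3 (28.5 to 47.2) and 24.2% of cen (18.1 to 31.5), and the genome 29.1% and 18.9%. For CHH it had 19.4% (9.19 to 36.3) and 12.0% (5.62 to 23.8), and the genome 27.4% and 24.6%. As both tables were made against Col, a deviation of Col at a place enters both, so these shares describe the lists and are no measure of agreement between the lines.

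Of the overlapping pairs in the knob, 23 CG pairs were higher in both lines, 21 lower in both and 8 opposite. The opposite pairs were 15.4% (8.01 to 27.5), against 7.44% in the left flank, 13.3% in the right flank and 8.10% in the genome, a value just inside the interval. All 37 CHG pairs went the same way, 34 higher and 3 lower, and all 6 CHH pairs were higher, and in the genome 1.77% of CHG pairs and 1.38% of CHH pairs were opposite. The median CHG difference over the 37 pairs was 0.163 in ddb2-3 and 0.170 in cen, and 27 of them differed by at most 0.05. In CG, 32 of the 44 pairs of like sign differed by at most 0.05. These counts were made for the knob alone, and both differences of a pair include the same Col library, so they are no measure of agreement between the lines. Regions met by no region of the other line were in CHG 26 higher and 36 lower for ddb2-3, and 110 higher and 6 lower for cen. Higher regions thus made up 41.9% (30.5 to 54.3) of those for ddb2-3 and 94.8% (89.2 to 97.6) for cen, against 51.6% and 91.1% in the genome, values inside both intervals.

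**Figure D5:**
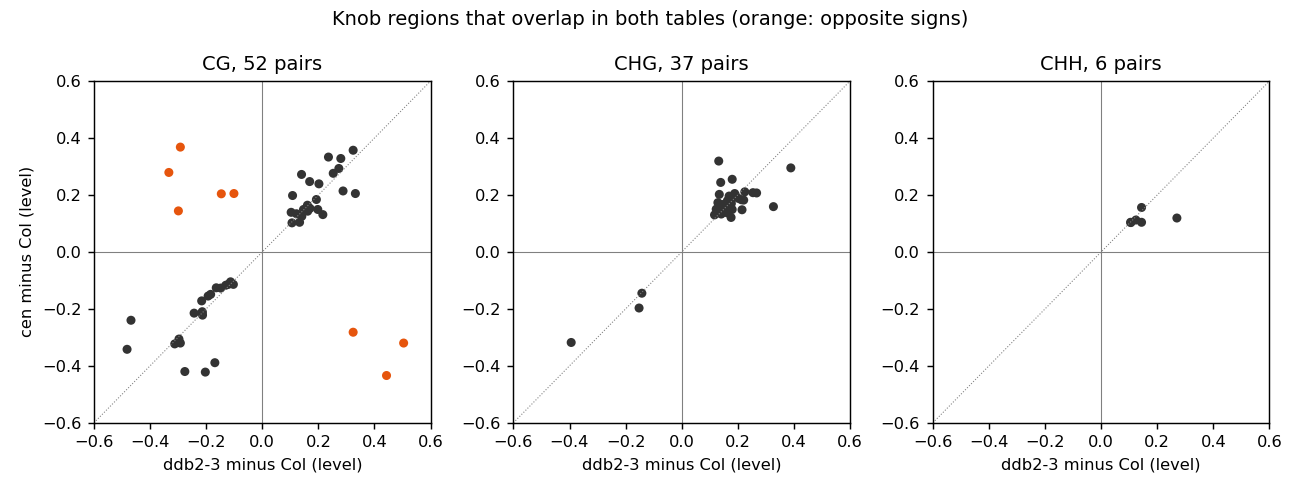
Difference in methylation level of ddb2-3 (horizontal axis) and cen (vertical axis) from Col for knob regions that overlap in both tables, by context, with the dotted line marking equal values. All 37 CHG and 6 CHH pairs lie in the quadrants of equal sign, and 8 of 52 CG pairs (orange) do not. The axes share the Col library.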

How the data were processed

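Seedling DNA was bisulfite sequenced. The submitters' processing notes name Bismark with Bowtie2 (2.0), Trim Galore with cutadapt, and FastQC, and the build TAIR10. The method of calling regions is not stated in the sources used here. The 6 tables deposited by the authors place each region on a grid of 100 bp, counted from 1, and give a difference of methylation levels (both signs occur). Depth per region is unknown.

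The sign was read as Col minus the line from places with identical values in both tables (within 1.5e-06), as a line level of 0 in both tables would leave the level of Col. In CG 806 of 818 were positive, in CHG 4 of 7 and in CHH 5 of 5. The CHG ties do not decide, and CHG was read like CG because in ddb2-3 661 of 668 overlaps between CHG and CG had the same sign.

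Regions were placed by midpoint, first in protein-coding genes, then pseudogenes, other RNA genes, within 1 kb of a protein-coding gene, and outside. Gene names and the genes at each region came from RefSeq (TAIR10.1). As that build differs by name, regions were shifted as a check. The share of the knob's ddb2-3 CHG regions in pseudogenes was 61.6% in place and 40.4% and 39.4% at 5000 bp to either side. Genes named one by one count regions that overlap the gene. Genome densities used the span to the last region or gene of each nuclear chromosome, and pericentromeres were centred at 15, 3.6, 14, 4 and 12 Mb on chromosomes 1 to 5.

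Named are, per table and direction, the 2 regions with the widest difference, and per table the 3 longest of 300 bp or more (the text gives part of these) the 5 genes with most regions, the protein-coding genes with a symbol, and 10 landmark genes. OSCA1 is a synonym in the gene table. The CHG regions in protein-coding genes and the fine stretches were chosen after their values were seen. The members and lists were chosen with earlier results of these data known. The counting, overlap and placement steps were tested on simulated data. Python 3.11.15, pandas 2.3.3, NumPy 2.4.6 and matplotlib 3.10.9 were used.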

Additional observations from a re-analysis of the deposited data

Results flagged for a closer look

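At 8 places in the knob the CG tables list ddb2-3 and cen with opposite signs against Col, which was not tested, with 1 library a line. In the authors' deposited tables ddb2-3 was lower and cen higher at 1976901 to 1977000 (0.333 and 0.279), 2091101 to 2091200 (0.101 and 0.205), 2129501 to 2129700 (0.299 and 0.144), 2132101 to 2132200 (0.292 and 0.368) and 2218801 to 2218900 (0.146 and 0.204). The authors' deposited tables have ddb2-3 higher and cen lower at 2132301 to 2132400 (0.504 and 0.320), 2214901 to 2215100 (0.443 and 0.434) and 2222901 to 2223000 (0.324 and 0.282). At 2132101 to 2132200 the authors' deposited table of cen also lists an overlapping region, 2132101 to 2132400, as lower by 0.320, so that cen has both signs there. The cen region at 2091101 to 2091200 runs from 2091001 to 2091200 and also overlaps a ddb2-3 region of its own sign. That ddb2-3 region, 2091001 to 2091100, was higher by 0.332 in the authors' deposited table. Of the 8, 3 lie in EMB2369 and 1 in WRKY42.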

How the results depend on the processing

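Of 180 alternative values, 156 kept within 1.5 times the reported count or ratio, or within the 95% interval of the reported share or median. Keeping only differences of at least 1.5 times the smallest listed one moved the density per 100 kb to 14.0 (ddb2-3 CG), 16.7 (cen CG), 0.714 (ddb2-3 CHH, 5 regions) and 0.857 (cen CHH, 6 regions). It moved the median difference to 0.215 and 0.217 (CG, ddb2-3 and cen), 0.191 and 0.188 (CHG) and 0.162 and 0.187 (CHH), as its construction requires, and the share higher of ddb2-3 CHH to 100%. The density in the knob over that of both flanks, 1.02 for cen CHH, became 0.600, so its direction reversed (it was also below 1 with narrower borders, 0.951, and over 100 bp windows, 0.917). For CHG it was 2.44 (ddb2-3) and 2.57 (cen) over all regions. With narrower borders, where the flanks take in part of the knob, it was 1.81 for both lines. With wider borders it was 1.88 (ddb2-3) and 2.09 (cen). With the limit of 1.5 times, the share in both tables was 23.9% (ddb2-3) and 15.5% (cen) in CHG and 0% in CHH for both. The cen CG median was 0.180 with wider borders (1.5 to 2.4 Mb) and 0.179 over 100 bp windows, and the cause was not tested. Counting as shared only regions with the same start and end gave 20.8% and 17.9% in CG (ddb2-3 and cen) and 22.2% and 14.4% in CHG, and counting those within 200 bp gave 44.6% and 37.4% in CG. Narrower borders (1.7 to 2.2 Mb), merging of neighbours, the same sign as a condition and, chosen after seeing the data, removal of regions that overlap one of opposite sign moved no other value beyond these limits. No paired analysis was possible because each line has 1 library. Depth is unknown, so the precision of single regions is too.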
